A study of Mus musculus with 4 samples.

Results

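The genes described here are 35 enzymes that make, interconvert or break down purine and pyrimidine nucleotides. They were chosen by name, as enzymes of these pathways, with no measured value in the rule, though earlier results of these data were known. They were looked up by symbol among the 37583 features listed for each library. Every one was listed: 34 symbols matched 1 feature, and Uck2 matched 2, of which the locus with the longer exon length was used (the other held 6 to 8 reads per library). All 35 had at least 20 exon reads in each pair of libraries and entered every comparison.

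The cells were naive CD4+ T cells, sorted from the spleen of C57BL/6 mice and stimulated with plate-bound antibodies to CD3 and CD28. All 4 cultures also received IL-1β, IL-6 and IL-23 together with blocking antibodies to IL-4 and IFN-γ, the mixture that the labels call aTh17. To 1 culture DMAT was added at 1.5 µM and to another CX4945 at 1 µM, each for 24 h. Both compounds inhibit CK2, a serine/threonine protein kinase. Each inhibitor has its own control library without it, and the labels do not say whether the controls received solvent. Each of the 4 groups is 1 library, the number of mice behind each is not given, and the labels do not say whether the pairs came from different animals or different cultures. A p-value over both pairs therefore measures only how these libraries vary, and that variation may be technical.

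Resting T cells live largely on recycled nucleotides, whereas a stimulated T cell that prepares to divide turns on synthesis from small precursors. Purines are built stepwise on phosphoribosyl pyrophosphate until inosine monophosphate is reached, which is then converted to AMP or GMP. Pyrimidines are built as a free ring that becomes UMP, and CTP is made from UTP. Ribonucleotide reductase turns ribonucleotides into the deoxynucleotides used for DNA. Drugs that inhibit IMP dehydrogenase or dihydroorotate dehydrogenase are used to restrain lymphocytes.

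The libraries held 2056635 to 2772525 exon reads, of which 81.3 to 81.7% were unique, and 9331 to 9661 genes had at least 10 reads. Levels are given as CPM, exon reads divided by the TMM-scaled library size on the usual scale, and comparisons between genes also per kilobase of exon. T cell markers were present in every library (Cd3e at 129 to 169 CPM and Cd4 at 253 to 278 CPM). Summed reads were 1 to 4 for 4 B cell markers, 6 to 10 for 2 CD8 markers, 5 to 9 for the 5 listed myeloid markers, and 0 for 3 NK cell and 3 erythroid markers. A count of 0 allows up to 3 reads per library. The 35 genes took 0.856% of exon reads in the DMAT control, 0.915% with DMAT, 0.877% in the CX4945 control and 0.841% with CX4945. In bulk RNA, fewer cells with a transcript and less of it per cell cannot be told apart.

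**Figure D1:**
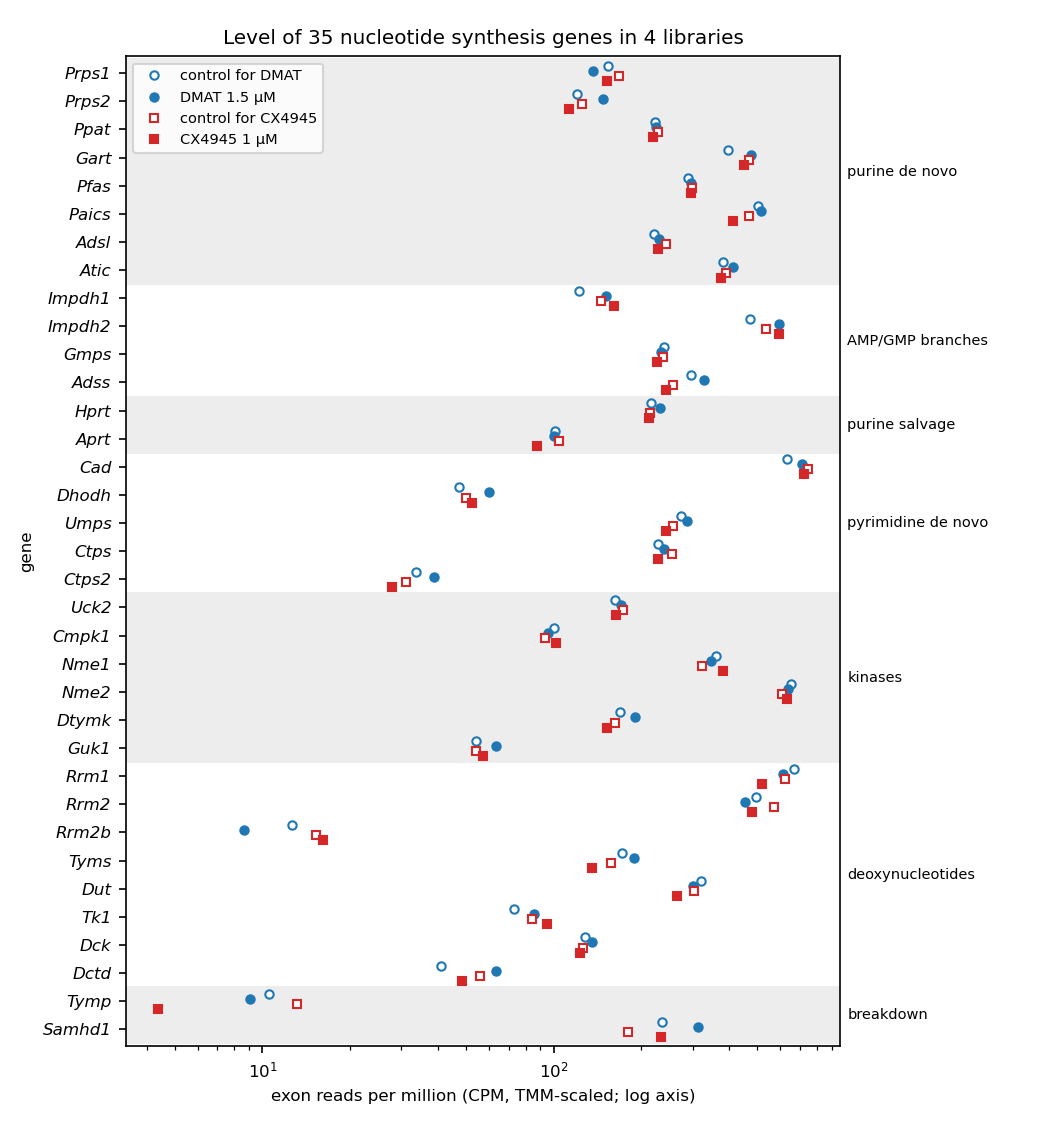
Level of each of the 35 genes in the 4 libraries, in CPM on a log axis, ordered by role; open symbols are control libraries and filled symbols inhibitor libraries. For most genes the 4 symbols lie close together; Tymp with CX4945, at 4.39 CPM, is the lowest point, and Cad in the CX4945 control, at 744 CPM, the highest.

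The ratios were small compared with the range of levels. With DMAT 0 of 35 genes differed 2-fold or more from the control, a size reached by 2.37% of all genes tested in that pair. With CX4945 1 of 35 did, Tymp, where 1.78% of all genes tested did. Between the control libraries 0 of 35 did, against 2.29% of all genes. The median log2 ratio of the 35 genes was 0.07 with DMAT and -0.07 with CX4945, beside 0.00 over all genes in each pair and 0.04 for the 35 genes between the controls. With DMAT 24 genes were at higher values than in the control and 11 at lower ones, where 50% of all genes were higher. With CX4945 10 were higher and 25 lower, where 49.4% of all genes were higher and 50.6% lower. For 30 genes in the DMAT pair and 31 in the CX4945 pair, the 95% counting interval of the ratio lay wholly within 1.5-fold, which held for 49.2% and 46.5% of all genes. The width of this interval is set largely by the number of reads. The 35 genes had medians of 450 to 610 reads per library, while all genes tested include those with 20 reads in a pair. The all-gene shares given here, also those for 2-fold and for intervals that exclude 1, are thus not matched for read number. The interval excluded 1 on the high side for 8 genes with DMAT (9% of all genes) and 3 with CX4945 (7.06%), and on the low side for 2 with DMAT (9.89%) and 5 with CX4945 (7.75%). Between the controls it did so for 6 genes on the high side (8.87%) and 3 on the low side (9.77%). These intervals cover counting error only, since each group is 1 library. They also treat reads as independent, though several reads can come from the same molecule.

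**Figure D2:**
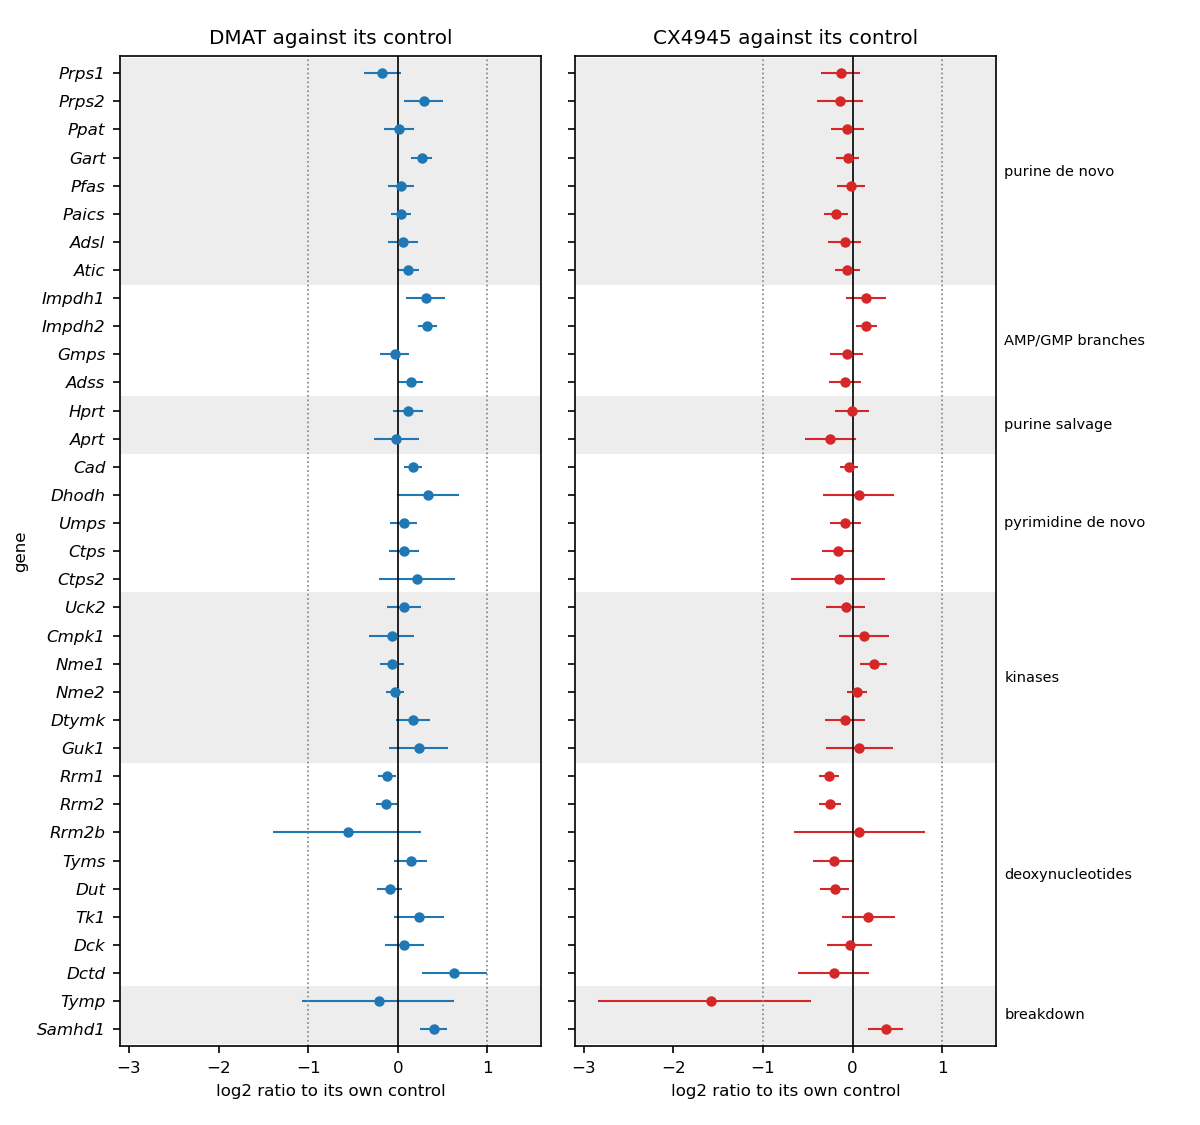
Ratio of each inhibitor library to its own control, left for DMAT and right for CX4945, for the 35 genes; points are log2 ratios of CPM, bars 95% counting intervals without replicate error, and dotted lines 2-fold. Most intervals cross 0, and Tymp with CX4945, 2.98-fold lower, is the only point beyond a dotted line.

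Since there is 1 library per group, a single pair carries no test. A joint model of all 4 libraries, blocked by pair, was therefore tested in edgeR (quasi-likelihood F, p-values adjusted by Benjamini-Hochberg over 9745 genes). Of all genes 0.544% passed at an adjusted p of 0.05 (17 rose and 36 fell), and 0 of 35 nucleotide genes did. At an unadjusted p below 0.05 there were 5 nucleotide genes, against 7.17% of all genes. Of these 3 were higher (Samhd1, Impdh2 and Impdh1), against 2.91% of all genes, and 2 lower (Rrm1 and Rrm2), against 4.26%. DESeq2 with the same block called 3 genes in all (0.0308%) and 0 of the 35. The joint model has 1 residual degree of freedom per gene, and most of the spread edgeR uses is borrowed from other genes.

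**Figure D3:**
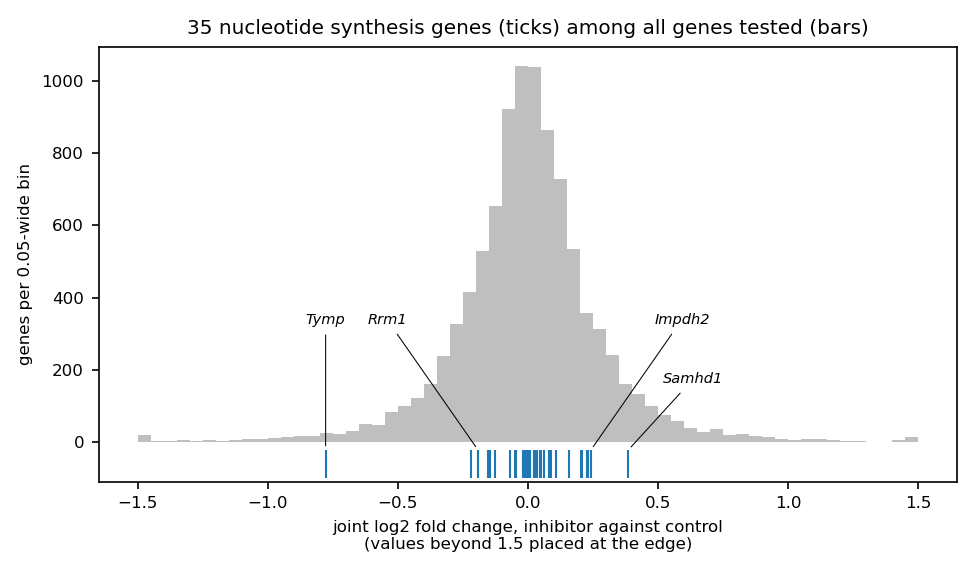
Joint log2 fold change, inhibitor against control over both pairs: grey bars count all 9745 genes in bins of 0.05 (values beyond 1.5 placed at the edge) and blue ticks mark the 35 genes. The ticks lie within the bulk of all genes, with Tymp lowest at -0.78 and Samhd1 highest at 0.39.

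Ribonucleotide reductase makes deoxynucleoside diphosphates, and it is built from a large catalytic subunit, Rrm1, and a small subunit, Rrm2, which carries the radical. Rrm1 (mm9 chromosome 7, 109590209 to 109618285, listed with 19 exons) stood at 666 CPM in the DMAT control and 612 CPM with DMAT, and at 624 CPM in the CX4945 control and 519.9 CPM with CX4945. Both inhibitor libraries were below both controls. How many of all genes show such an order was not counted, here or where it is given for other genes. Relative to its control, DMAT gave a 1.09-fold lower value (counting interval 1.02 to 1.17) and CX4945 one that was 1.20-fold lower (1.11 to 1.30). Rrm2 (mm9 chromosome 12, 25393106 to 25399011, listed with 17 exons) stood at 494 and 452 CPM in the DMAT pair and at 572 and 479 CPM in the CX4945 pair. The DMAT value was 1.09-fold below its control (1.01 to 1.18) and the CX4945 value 1.19-fold below its own (1.10 to 1.30), and both inhibitor libraries were again below both controls. The controls themselves differed, with Rrm2 1.16-fold higher in the CX4945 control (1.07 to 1.25). In both pairs the interval lay below 1 for these 2 genes, as it did for 1.68% of all genes tested in both. The joint log2 fold change was -0.19 ± 0.08 (SE derived from the test's F) for Rrm1, with an adjusted p of 0.606. For Rrm2 it was -0.19 ± 0.08, with an adjusted p of 0.631.

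Reads that span 2 exons come from spliced transcripts, and they gave the same order for both genes. Rrm1 had 562 such reads in the DMAT control and 460 with DMAT, and 459 in the CX4945 control and 300 with CX4945, ratios of 0.889 (counting interval 0.785 to 1.01) and 0.730 (0.629 to 0.846). For Rrm2 they numbered 346 and 290, then 364 and 256, ratios of 0.911 (0.776 to 1.07) and 0.785 (0.667 to 0.924). The intervals of the DMAT pair include 1 in this smaller count. Both genes are carried by unique reads, 100% for Rrm1 and 99.3% for Rrm2.

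Because Rrm1 and Rrm2 were lower in the same libraries, the 250 bases before their annotated starts are shown (RefSeq, GRCm38.p6, a different build from that of the read tables), in lower case with CCAAT, the core of the motif bound by the factor NF-Y, in capitals. The Rrm1 sequence is chr7:102441445-102441694 and the Rrm2 sequence chr12:24708004-24708253, both on the plus strand, 5′ to 3′.
Rrm1: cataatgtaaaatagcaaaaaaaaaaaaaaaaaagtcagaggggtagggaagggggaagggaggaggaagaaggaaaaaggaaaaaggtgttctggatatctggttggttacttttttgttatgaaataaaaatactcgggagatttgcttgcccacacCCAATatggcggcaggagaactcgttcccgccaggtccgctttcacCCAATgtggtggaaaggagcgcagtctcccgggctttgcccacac
Rrm2: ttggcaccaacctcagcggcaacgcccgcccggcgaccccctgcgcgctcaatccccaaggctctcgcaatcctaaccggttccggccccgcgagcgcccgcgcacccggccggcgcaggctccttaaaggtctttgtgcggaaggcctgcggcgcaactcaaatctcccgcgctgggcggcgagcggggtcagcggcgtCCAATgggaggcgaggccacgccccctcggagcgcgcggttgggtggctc
CCAAT begins 91 and 45 bases before the start of Rrm1 and 50 bases before that of Rrm2. Searched on both strands, it was found before 11 of the 32 nucleotide genes with an entry in the promoter table, which is 34.4%, and before 37.5% of all 27025 genes there. CACGTG, the E-box that Myc and other factors bind, was found before 6 of 32, or 18.8% (Atic, Dtymk, Impdh2, Nme1, Paics and Tyms), and before 6.86% of all genes. The E2F-type motifs TTTCCCGC and TTTGGCGC were found before 1 (Ppat) and 0 of 32, and before 1.03% and 0.485% of all genes. Such matches describe the letters of this window only. The 32 leave out Pfas, Dhodh and Rrm2b.

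The alternative small subunit Rrm2b, which is known to be induced by p53, was scarce, at 12.7 CPM in the DMAT control, 8.66 with DMAT, 15.3 in the CX4945 control and 16.1 with CX4945. These values rest on 22 to 35 reads, and 81.3% of the reads at this gene fell outside its exons, where the median over the 35 genes was 5.21%. Per kilobase of exon Rrm2 was 69.1 to 121 times as abundant as Rrm2b in the 4 libraries. In the joint fit Rrm2b had a log2 fold change of -0.22 ± 0.33, with an adjusted p of 0.95.

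Thymidylate enters from more than one side. Tyms, thymidylate synthase, methylates dUMP and was at 171 CPM in the DMAT control and 189 with DMAT, but at 157 in the CX4945 control and 136 with CX4945. The DMAT value was 1.10-fold above its control (0.971 to 1.26) and the CX4945 value 1.16-fold below its own (0.986 to 1.36), and both intervals include 1. Tk1, the cytosolic thymidine kinase of dividing cells, was at 72.8 and 85.8 CPM in the DMAT pair and at 83.9 and 94.7 CPM in the CX4945 pair. Both inhibitor libraries were above both controls, with ratios of 1.18 (0.968 to 1.43) and 1.13 (0.920 to 1.38), and the adjusted p of the joint fit was 0.825. Only 28.8% of Tk1 reads were unique, and those 50 to 72 reads per library gave a joint log2 fold change of 0.52 with an adjusted p of 0.551. The gene overlaps the feature RP23-268N22.1, which was listed with 41 reads, 0% of them unique.

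The deoxycytidylate deaminase Dctd supplies dUMP for thymidylate synthase. It was at 40.9 CPM in the DMAT control and 63.3 with DMAT, a 1.55-fold higher value (1.21 to 1.99), and at 56.0 in the CX4945 control and 48.3 with CX4945, a ratio of 0.864 (0.658 to 1.13). The DMAT control was the low library, since the CX4945 control exceeded it 1.37-fold (1.05 to 1.78). In the joint fit Dctd was at 0.23 ± 0.19, with an adjusted p of 0.892. Dut, which removes dUTP, was 1.15-fold lower with CX4945 (1.03 to 1.29) and 1.07-fold lower with DMAT (0.966 to 1.18). Dck, the deoxycytidine kinase, was at 123 to 135 CPM in all libraries. Reads were summed over the 8 deoxynucleotide genes (Rrm1, Rrm2, Rrm2b, Tyms, Dut, Tk1, Dck and Dctd). Relative to the control these sums were 0.969 with DMAT (0.931 to 1.01) and 0.868 with CX4945 (0.830 to 0.907). With CX4945 6 of the 8 were at lower values, where 50.6% of all genes were.

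Proliferation markers are given beside these values, since the deoxynucleotide enzymes are most needed during DNA replication. Summed reads of 8 such markers (Mki67, Pcna, Top2a, Mcm2, Mcm5, Ccna2, Ccnb1 and Cdk1) relative to the control were 0.886 with DMAT (0.864 to 0.909) and 0.976 with CX4945 (0.948 to 1.01), and 0.886 between the controls (0.863 to 0.909). They took 0.414 to 0.479% of exon reads per library, and none of the 8 was at 0. In the joint fit Ccnb1, cyclin B1, fell, with a log2 fold change of -0.65 ± 0.13 and an adjusted p of 0.0306, and the other 7 did not pass. DESeq2 with the same block called 0 of the 8, so that call was lost there. At an unadjusted p below 0.05, 5 of the 8 were lower, while Pcna was at 0.01 and Mcm2 at 0.13. Their part in the ribonucleotide reductase values was not tested.

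Samhd1 works in the other direction: it hydrolyses deoxynucleoside triphosphates and so limits the pool. Samhd1 (mm9 chromosome 2, 156923265 to 156961001, listed with 36 exons) was at 236 CPM in the DMAT control and 312 CPM with DMAT, and at 181 CPM in the CX4945 control and 233 CPM with CX4945. Within each pair the inhibitor library was higher, 1.32-fold with DMAT (1.19 to 1.47) and 1.29-fold with CX4945 (1.13 to 1.48). Across pairs the groups overlapped, because the controls differed by as much: the CX4945 control was 1.31-fold below the DMAT control (1.15 to 1.48). CX4945 set against the other control therefore gave a log2 ratio of -0.02, and DMAT against the other control 0.79. The joint log2 fold change was 0.39 ± 0.09, the highest of the 35 genes, with an unadjusted p of 0.000668 and an adjusted p of 0.0917, which misses the threshold. The call depended on the settings. Samhd1 passed with unique reads (adjusted p = 0.0264, where 0.889% of all genes passed), with DESeq2's size factors (0.0362, 0.893% of genes) and with scaling by total count (0.0255, 1.12% of genes). It did not pass with a minimum of 50 reads (0.179), with no filter (0.118), without the block or with DESeq2 and the block. Without the CX4945 library, a fit with a lone inhibitor library and no block, its joint log2 fold change was 0.58. Over all 11 alternatives that value ran from 0.16 to 0.60. Reads spanning 2 exons gave ratios of 1.20 (0.971 to 1.48) with DMAT and 1.56 (1.18 to 2.08) with CX4945.

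Tymp, thymidine phosphorylase, splits thymidine into thymine and deoxyribose phosphate. It was the least abundant member in 3 of the 4 libraries by CPM, with 29 reads in the DMAT control, 23 with DMAT, 30 in the CX4945 control and 9 with CX4945. In CPM these are 10.5, 9.05, 13.1 and 4.39, and the library with CX4945 is the low one. The CX4945 value was 2.98-fold below its control (1.38 to 7.15) and the DMAT value 1.16-fold below its own (0.648 to 2.10, an interval that includes 1). In the joint fit Tymp was at -0.78 ± 0.41, with an adjusted p of 0.74. Tymp had 39 reads in the CX4945 pair, so with a minimum of 50 reads it was not tested there and 0 nucleotide genes reached 2-fold.

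IMP dehydrogenase carries out the first committed step to GMP and exists as 2 isozymes. Impdh2 (mm9 chromosome 9, 108462774 to 108467895, listed with 14 exons) was at 472 CPM in the DMAT control and 594 with DMAT, and at 534 in the CX4945 control and 593 with CX4945. Both inhibitor libraries were above both controls, 1.26-fold with DMAT (1.17 to 1.36) and 1.11-fold with CX4945 (1.02 to 1.20), while the controls differed 1.13-fold (1.05 to 1.22). The interval lay above 1 in both pairs for Impdh2 and Samhd1 alone among the 35 genes, and for 1.12% of all genes. Impdh1 was at 122 and 151 CPM in the DMAT pair (1.24-fold, 1.07 to 1.44) and at 145 and 161 CPM in the CX4945 pair (1.11-fold, 0.950 to 1.30), again with both inhibitor libraries above both controls. The joint log2 fold changes were 0.24 ± 0.08 for Impdh2, adjusted p 0.404, and 0.23 ± 0.11 for Impdh1, adjusted p 0.693. By total reads, Impdh2 was 7.21 to 7.68 times as abundant as Impdh1 per kilobase of exon. Unique reads alone do not show that order. They numbered 140 to 167 per library for Impdh2, with 1681 bases of exon, and 330 to 385 for Impdh1, with 3294. Only 11.4% of Impdh2 reads were unique, against 100% for Impdh1, and 39.3% of the 50-base stretches of Impdh2 transcripts (GENCODE M21) also occur in the pseudogene Impdh2-ps. With unique reads alone the Impdh2 log2 ratios were 0.28 with DMAT and 0.20 with CX4945, from 140 to 167 reads per library. Its reads spanning 2 exons numbered 562 and 582 in the DMAT pair and 523 and 484 in the CX4945 pair, ratios of 1.13 (1.00 to 1.27) and 1.03 (0.911 to 1.17), and the second interval includes 1.

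The next enzyme towards GMP, the GMP synthetase Gmps, was at 239.7 and 234 CPM in the DMAT pair and at 238 and 227 CPM in the CX4945 pair, and both intervals of its ratio include 1 (0.873 to 1.09 and 0.842 to 1.08). Adss, which starts the branch to AMP, was at a ratio of 1.11 with DMAT (1.00 to 1.22) and 0.944 with CX4945 (0.836 to 1.07). The controls differed 1.16-fold for this gene (1.04 to 1.29), the CX4945 control being lower. Summed over the 4 branch genes, the ratio was 1.16 with DMAT (1.10 to 1.21), 1.04 with CX4945 (0.987 to 1.10) and 1.04 between the controls (0.986 to 1.09).

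**Figure D4:**
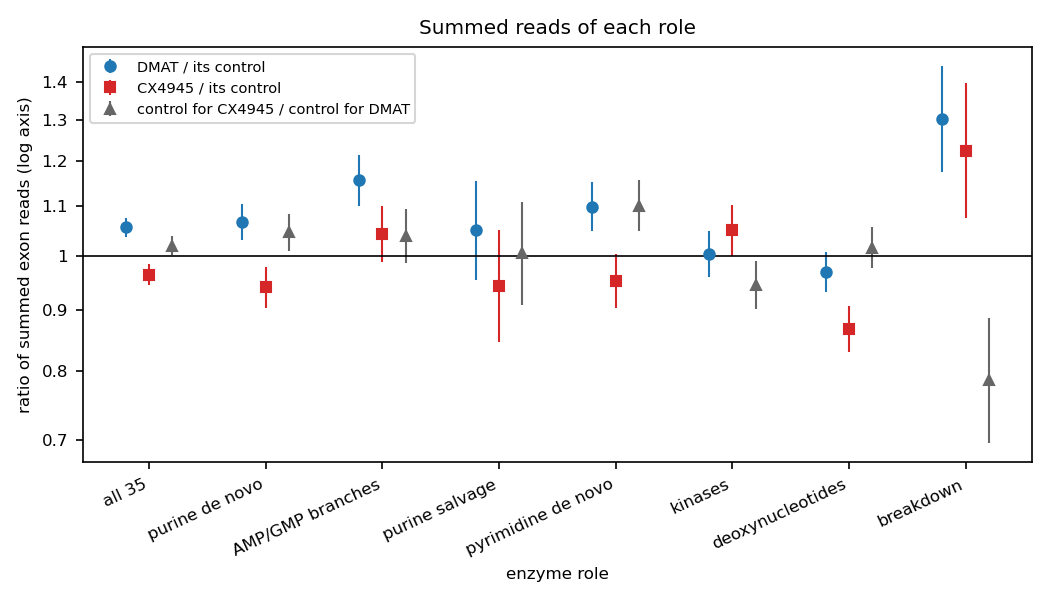
Reads summed over the genes of each role, as the ratio of each inhibitor library to its control and of the control libraries to each other, with 95% counting intervals, on a log axis. Deoxynucleotide genes with CX4945 (0.868) lie below 1, AMP and GMP branch genes with DMAT (1.16) above it, and the breakdown group, mostly Samhd1 reads, above it with both inhibitors. Sums weigh abundant genes most. Rrm1 and Rrm2 gave 1065 and 981 of the 3443 deoxynucleotide reads with CX4945, and Impdh2 1509 of the 3322 branch reads with DMAT.

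The 8 genes that build inosine monophosphate showed small ratios of opposite sign in the pairs. Their summed reads were 1.07 times the control with DMAT (1.03 to 1.11) and 0.940 times with CX4945 (0.904 to 0.978), and 1.05 between the controls (1.01 to 1.08). With DMAT 7 of the 8 were higher, where 50% of all genes were, and with CX4945 8 of 8 were lower, where 50.6% were. Between the controls 7 of the 8 were likewise higher, in the CX4945 control. Ppat, the amidotransferase that commits to the pathway, was at 222 and 225 CPM in the DMAT pair and at 229 and 219.7 CPM in the CX4945 pair, and its joint log2 fold change was -0.02 ± 0.10 (adjusted p = 0.988). Gart, a trifunctional enzyme of the same route, was 1.20-fold higher with DMAT (1.11 to 1.31), but the DMAT control was its low library, and the CX4945 control was 1.18-fold above it (1.09 to 1.29). Paics was 1.14-fold lower with CX4945 (1.04 to 1.24) and at a ratio of 1.03 with DMAT (0.951 to 1.11). Ppat and Paics overlap by 272 bases in mm9, and without the strand the reads of that stretch cannot be told apart. The interval of Prps2, which makes phosphoribosyl pyrophosphate, lay above 1 with DMAT (1.22-fold, 1.05 to 1.42), while its isozyme Prps1 was at 0.887 (0.768 to 1.02). Prps1 was 1.80 to 2.62 times as abundant as Prps2 per kilobase of exon. Pfas, Adsl and Atic had ratios of 0.940 to 1.08 over both pairs. In the joint fit the 8 genes ran from -0.15 to 0.11, all with adjusted p of at least 0.847.

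Salvage of purine bases rests on Hprt, which recovers hypoxanthine and guanine, and Aprt, which recovers adenine. Hprt was at 215 and 233 CPM in the DMAT pair and at 213 and 212 CPM in the CX4945 pair. Aprt was at 101 and 99.9 CPM in the DMAT pair and at 104 and 87.9 CPM in the CX4945 pair, where CX4945 was 1.19-fold lower (0.976 to 1.45). All 4 ratio intervals include 1. Of the Aprt reads 47.6% were unique, and the gene lies within the feature Gm20388, which was listed with 828 reads, 0% of them unique.

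Pyrimidine synthesis begins with Cad, a single protein with the first 3 activities of the pathway. Cad was at 630.4 CPM in the DMAT control, 709 with DMAT, 744 in the CX4945 control and 721 with CX4945. Only the DMAT control stood apart, so Cad was 1.13-fold higher with DMAT (1.05 to 1.20), at a ratio of 0.970 with CX4945 (0.904 to 1.04), and 1.18-fold higher in the CX4945 control than in the DMAT control (1.10 to 1.26). Ctps, the main CTP synthase by level here, was at 228 and 239 CPM in the DMAT pair and at 255 and 228 CPM in the CX4945 pair, with joint adjusted p 0.966. Per kilobase it was 8.73 to 11.7 times as abundant as Ctps2. Dhodh, the mitochondrial dihydroorotate dehydrogenase, was the scarcest of these genes after Ctps2, at 47.4 to 59.8 CPM over all libraries, with ratios of 1.26 (0.991 to 1.60) and 1.05 (0.798 to 1.38). Umps, which yields UMP, had ratios of 1.05 (0.945 to 1.16) and 0.946 (0.838 to 1.07). Summed over the 5 genes the ratio was 1.10 with DMAT (1.05 to 1.15), 0.952 with CX4945 (0.903 to 1.00) and 1.10 between the controls (1.05 to 1.16). The ratio with DMAT was thus no larger than that between the controls, which share the DMAT control as denominator.

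The kinases raise nucleosides and monophosphates to the triphosphates. Uck2 phosphorylates uridine and cytidine, Cmpk1 acts on UMP and CMP, Guk1 on GMP and Dtymk on thymidylate. These 4 had ratios of 0.942 to 1.17 in the 2 pairs, and every one of their intervals included 1. Nme1 and Nme2 are nucleoside diphosphate kinases that transfer the last phosphate. By total reads Nme2 was the most abundant of the 35 genes per kilobase of exon, at a mean of 539 CPM per kilobase. Only 6.40% of its reads were unique, so that rank is uncertain. Nme1 was at 361 and 345 CPM in the DMAT pair and at 323 and 379.8 CPM in the CX4945 pair, 1.18-fold higher with CX4945 (1.06 to 1.30), with the CX4945 control as the low library. Nme2 lay between 609 and 650.0 CPM in all libraries.

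Reads of these 2 genes were mostly not unique: 11.6% of Nme1 reads and 6.40% of Nme2 reads were. The first 150 bases of an open reading frame of the same length in each gene are shown (GENCODE M21 transcripts, lower case, 5′ to 3′, with the bases at which they differ in capitals).
Nme1: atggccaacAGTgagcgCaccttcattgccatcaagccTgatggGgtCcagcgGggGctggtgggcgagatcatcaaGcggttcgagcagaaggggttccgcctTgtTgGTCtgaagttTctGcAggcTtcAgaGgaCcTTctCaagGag
Nme2: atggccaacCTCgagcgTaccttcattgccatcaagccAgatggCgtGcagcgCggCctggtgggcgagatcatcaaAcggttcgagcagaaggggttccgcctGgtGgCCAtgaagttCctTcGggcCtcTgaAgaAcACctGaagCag
Of these 150 positions 26 differ. Over the whole frame of 459 bases 92 positions differ, so that 80% are identical, and the longest identical run is 29 bases. The feature Gm20390 overlaps both genes and was listed with 525 reads, 0% of them unique. Its transcripts share 11.1% of the 50-base stretches of Nme1 and 47% of those of Nme2. Gm20390 was the only other gene that held any of those of Nme1, so Nme1 and Nme2 transcripts shared no 50-base stretch. With unique reads the log2 ratios of Nme1 were 0.10 with DMAT and 0.03 with CX4945, from 86 to 106 reads per library. Its reads spanning 2 exons, which need not be unique, gave ratios of 1.01 (0.856 to 1.18) with DMAT and 1.27 (1.06 to 1.52) with CX4945. Because most of its reads are shared, the higher value with CX4945 is uncertain. For Nme2 the log2 ratios with unique reads were -0.18 with DMAT and 0.25 with CX4945, from 81 to 123 reads per library. Nme2 reads spanning 2 exons gave ratios of 0.944 (0.846 to 1.05) and 0.993 (0.875 to 1.13).

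**Figure D5:**
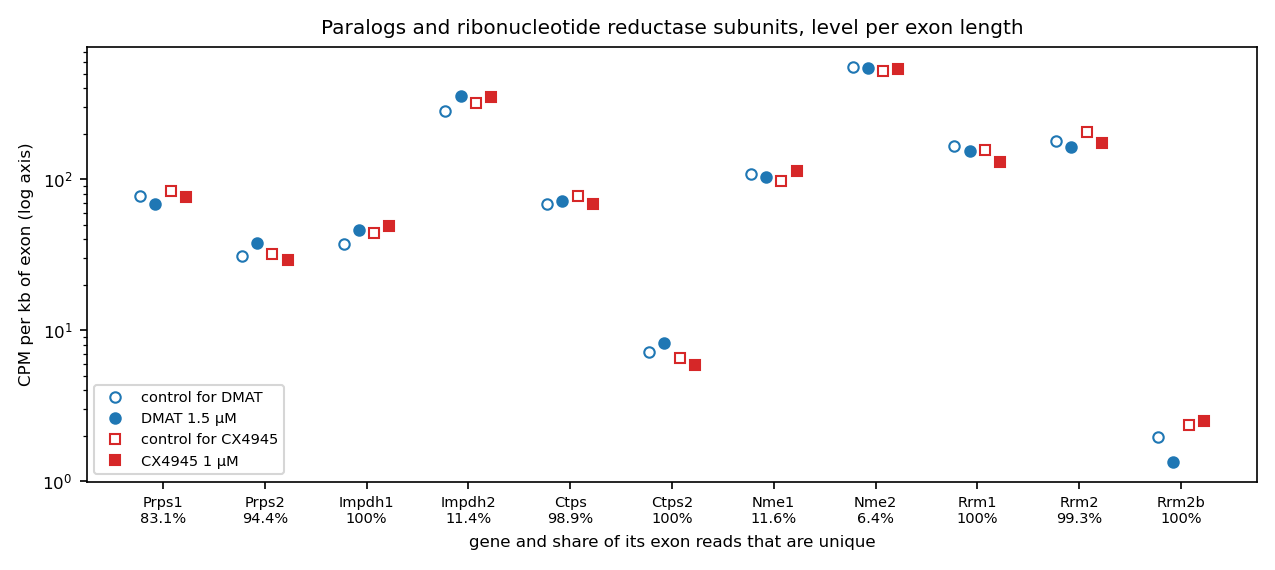
Level per kilobase of exon, on a log axis, of paralogous enzymes and of the ribonucleotide reductase subunits in the 4 libraries, with the share of each gene's exon reads that are unique below its name. By total exon reads, 1 gene of each pair of paralogs exceeds the other in all 4 libraries. Most reads of Impdh2, Nme1 and Nme2 are not unique. Rrm1 and Rrm2 lie close together.

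Set side by side, the pairs gave 6 genes at higher values with both inhibitors (Dhodh, Guk1, Impdh1, Impdh2, Samhd1 and Tk1), where 25.9% of all genes were, and 7 at lower values with both (Aprt, Dut, Gmps, Prps1, Rrm1, Rrm2 and Tymp), where 26.7% were. A further 18 had higher values in the DMAT pair and lower ones in the CX4945 pair, where 23.9% of all genes were, and 4 (Cmpk1, Nme1, Nme2 and Rrm2b) the reverse, where 23.5% were. No gene had intervals on opposite sides of 1 (0 of 35, and 1.49% of all genes). The pairs differ in compound and dose together and in their control library, so these cannot be told apart, and the difference between the inhibitors was not tested.

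The neighbouring pathways, taken as lists from knowledge of metabolism, gave 0 genes past the joint test, with edgeR as with DESeq2. Folate metabolism donates carbon to purines and thymidylate. All 12 of its listed genes were tested, and at an unadjusted p below 0.05 3 were lower and 0 higher. Joint log2 fold changes were 0.56 ± 0.33 for Mthfs, -0.44 ± 0.15 for the mitochondrial folate carrier Slc25a32 and -0.21 ± 0.09 for Mthfd2. Their adjusted p ran from 0.406 to 0.798. The summed ratio of the list was 1.02 (0.987 to 1.06) with DMAT and 0.956 (0.919 to 0.995) with CX4945.

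Other salvage and transport genes (11 of 13 tested) had a median joint log2 fold change of 0.09, and 0 of them passed an unadjusted p of 0.05. Among turnover genes 1 did, and among the other kinases 1 did, both at lower values. Of 19 turnover genes 9 were tested, with a median of -0.09, and the pyrophosphatase Itpa, which removes inosine triphosphate, was at -0.36 ± 0.12 (adjusted p = 0.380). Of the other kinases and related genes 8 of 13 were tested, with a median of -0.09. Their lowest value was that of the mitochondrial adenylate kinase Ak4, with 163 and 138 reads in the DMAT pair and 110 and 45 in the CX4945 pair. Its ratio was 0.920 (0.728 to 1.16) with DMAT and 0.457 (0.316 to 0.652) with CX4945, and the joint adjusted p was 0.536. Among 9 genes of precursor supply and its control, the median was 0.01, and 0 passed an unadjusted p of 0.05. Myc, the transcription factor known to drive many nucleotide genes, was at 409 and 471 CPM in the DMAT pair and at 473 and 412 CPM in the CX4945 pair. Its ratios were 1.15 (1.06 to 1.25) and 0.870 (0.794 to 0.953). The controls differed by as much, the CX4945 control being 1.16-fold above the DMAT control (1.06 to 1.26). The median of all 9745 genes in the joint fit was 0.00 and that of the 35 nucleotide genes 0.02.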

How the data were processed

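RNA sequencing libraries were made from total RNA with a TruSeq kit and read on an Illumina MiSeq, per the labels. Each deposited table, made by the authors, lists several read counts per feature. The count of total exon reads, raw and including reads that fit several places, was used, with unique and exon-exon read counts as checks. Per the submitters' processing notes, the genome was mm9 and CASAVA was run in version 1.8.2. Aligner, annotation, counting rule and strand are not given in the sources used here.

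Each inhibitor library was compared with its titled control. Counts were scaled with TMM factors of 0.996 to 1.007 (edgeR 4.0.16, R 4.3.3). Log2 ratios used a prior count of 2 and genes with at least 20 reads in the pair; ratio intervals are exact conditional 95% intervals. Both pairs were fitted jointly by edgeR's quasi-likelihood test, with the pair as a block taken from the titles and Benjamini-Hochberg adjustment over genes with 20 reads in either pair. The SE given was derived from that test, as the absolute log2 fold change divided by the square root of F. DESeq2 1.42.0, other scalings, read filters, unique reads, the other control, no block and leaving out each library were alternatives. No 2 libraries were duplicates: the chi-square of their counts per degree of freedom was 2.56 to 5.63. The members and lists were chosen with earlier results of these data known. Full values are given for rate-limiting or branch enzymes, for members 2-fold or more in a pair, and for the 4 highest and 4 lowest members by joint log2 fold change. The rest are given by range and count, except where a ratio interval that excludes 1 or a paralog was described after its values were seen. Of other lists, up to 4 genes are named. Some genes of those lists are not reported here.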

Additional observations from a re-analysis of the deposited data

How the results depend on the processing

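Each library is the only one of its group, so no ratio has a replicate check, and depth limits the scarce genes most (Tymp, Rrm2b, Ctps2). The number of genes past the joint test was 53 as reported, 87 with DESeq2 size factors, 109 with total count scaling, 83 with unique reads, 9 with a minimum of 50 reads, 1 without the replicate block, 3 with DESeq2 and the replicate block, and 1 to 151 when each library was left out in turn (1 without either control, 133 without DMAT and 151 without CX4945). The number of nucleotide genes past it was 0 as reported and 1, Samhd1, with DESeq2 size factors, total count scaling and unique reads, and 0 to 1 with a library left out. Their joint median ran from -0.037 without DMAT to 0.086 without CX4945, so its sign rests on the libraries used. With 1 library left out the fit has no block, and the lone library of an arm is assumed to vary like the other. The replicate block changed no call among the 35 genes.

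Counts of all genes at 2-fold or more changed with the read minimum, to 95 with DMAT, 65 with CX4945 and 93 between controls at 50 reads, and to 772, 1080 and 957 with no filter; fewer or more low genes are then tested. With CX4945 the count was 108 with unique reads and 366 against the other control, the number of nucleotide genes at 2-fold was 0 at 50 reads, and their median was -0.020 against the other control. The cause of changes other than those of the filter was not tested.

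Of the 35 genes 15 kept their sign in all 11 alternatives of the joint fit: Aprt, Dctd, Dhodh, Dut, Gmps, Guk1, Impdh1, Impdh2, Nme1, Prps1, Rrm1, Rrm2, Samhd1, Tk1 and Tymp. The share of all genes that did so was not computed. The alternatives reuse the same libraries, so a kept sign is no replicate check. Joint log2 fold changes near 0 changed sign for Uck2 (0.0033 with DESeq2 size factors, 0.0036 with total count scaling, 0.0043 with unique reads, 0.0056 with DESeq2) and Umps (0.0012, 0.0017 and 0.0032 with the first, second and last of these). With each library left out in turn, the ranges of the joint values that changed sign were as follows. They were Adsl -0.083 to 0.055, Adss -0.19 to 0.24, Atic -0.042 to 0.10, Cad -0.056 to 0.18, Cmpk1 -0.024 to 0.075, Ctps2 -0.22 to 0.26, Ctps -0.13 to 0.034, Dck -0.047 to 0.087, Dtymk -0.12 to 0.20, Gart -0.015 to 0.23. Those of the rest were Hprt -0.017 to 0.12, Nme2 -0.039 to 0.055, Paics -0.23 to 0.086, Pfas -0.016 to 0.031, Ppat -0.040 to 0.00047, Prps2 -0.12 to 0.27, Rrm2b -0.68 to 0.21, Tyms -0.28 to 0.20, Uck2 -0.046 to 0.040 and Umps -0.13 to 0.11.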
